A study of Mus musculus with 6 samples.

Results

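Chemokine and chemokine receptor genes were examined in 6 subcutaneous Hepa1-6 tumors. The genes were chosen by name: every probe on the array printed as a CC, CXC, XC or CX3C ligand or receptor (Ccl, Cxcl, Xcl1, Cx3cl1, Ccr, Cxcr, Xcr1, Cx3cr1), together with Pf4, Ppbp and Il8rb. This gave 53 genes (35 ligands and 18 receptors) read by 70 probes, of 27573 genes and 41174 probes on the array. Hepa1-6 is a hepatoma cell line of C57 mice that forms tumors in the immunocompetent C57Bl/6 strain. Cultured cells were injected subcutaneously into female C57Bl/6 mice, and the tumors that grew were taken at day 10 (tumors 302, 307 and 312) or at day 15 (tumors 303, 313 and 318), 1 array each. Tumor RNA carried the dye Cy5 and a reference, labelled as total RNA from the blood of an untreated female C57Bl/6 mouse, carried Cy3 on every array, with no dye swap. The labels name no treatment of the tumors, both days share strain, sex and cell line, and no normal liver, normal skin or cultured cells were analysed here.

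Chemokines are small secreted proteins that guide leukocytes through receptors coupled to G proteins. The inflammatory CC ligands mainly call monocytes, T cells and eosinophils through receptors such as Ccr1, Ccr2 and Ccr3. The interferon-induced ligands Cxcl9, Cxcl10 and Cxcl11 call activated T and NK cells through Cxcr3, and the ligands of Cxcr2 call neutrophils. A second set (Cxcl12, Cxcl13, Ccl19, Ccl21) is made by stromal cells and sets the traffic of resting lymphocytes and dendritic cells.

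The markers of the reference were mixed for blood. Of the abundant neutrophil transcripts, S100a8 was well above background in Cy3 on 0 of 6 arrays and S100a9 on 5, and the erythroid genes Hbb-bt, Hba-a1 and Alas2 were higher in the tumors by 5.80, 3.76 and 2.81 on the log2 scale. All 4 hepatoma markers (Afp, Alb, Ambp, Gpc3) exceeded background in Cy3 on every array, Afp and Alb by far and Ambp and Gpc3 at lower signal. Their Cy3 signal varied between arrays. Ambp lay between 7.67 and 11.18 and was lowest on the array of tumor 313, where Afp was highest (17.53). Why it varied was not tested. Ratios are therefore given against the reference labelled blood. By the scanner software's test, 52.4% to 58.5% of an array's spots exceeded background in Cy5 and 47.5% to 52.8% in Cy3, and no chemokine spot was saturated. The 3 arrays of day 10 lay on 1 slide and those of day 15 on another, so slide and day cannot be told apart. On the array of tumor 312 an area of 8491 spots (18.9%) had lost signal in both dyes, and the only probe of 9 of the 53 genes lay in it (among them Ccl27a, Ccl28, Ccr9, Ccr10, Cxcl2, Cxcl5, Cxcl14 and Cxcr6). The labels do not say whether each tumor came from a mouse of its own, and the p-values reflect only the variation among the 6 tumors, which may be technical.

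Most chemokine genes with a measurable signal were higher in the tumors than in the reference labelled blood. Of the 53 genes, 44 were bright enough in either dye to be tested, which also keeps genes bright in 1 dye alone, and the other 9 have no call. Of these, 31 were higher, 2 were lower and 11 did not pass (limma, adjusted p under 0.05 over all probes and a log2 ratio of at least 1 in size). Over all 16306 genes tested, 25.5% were higher and 9.78% were lower by the same rule. The median log2 ratio was 3.03 over the 44 genes and 0.22 over all genes. Of the 31 higher genes, 28 were above 0 in every tumor. The exceptions were Cxcl10 and Cx3cl1, both below 0 in tumor 313 alone, and Ackr3, which had no value in tumor 307 because its spot was an outlier there. In RNA from a whole tumor, fewer cells of a type and less RNA per cell cannot be told apart.

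**Figure D1:**
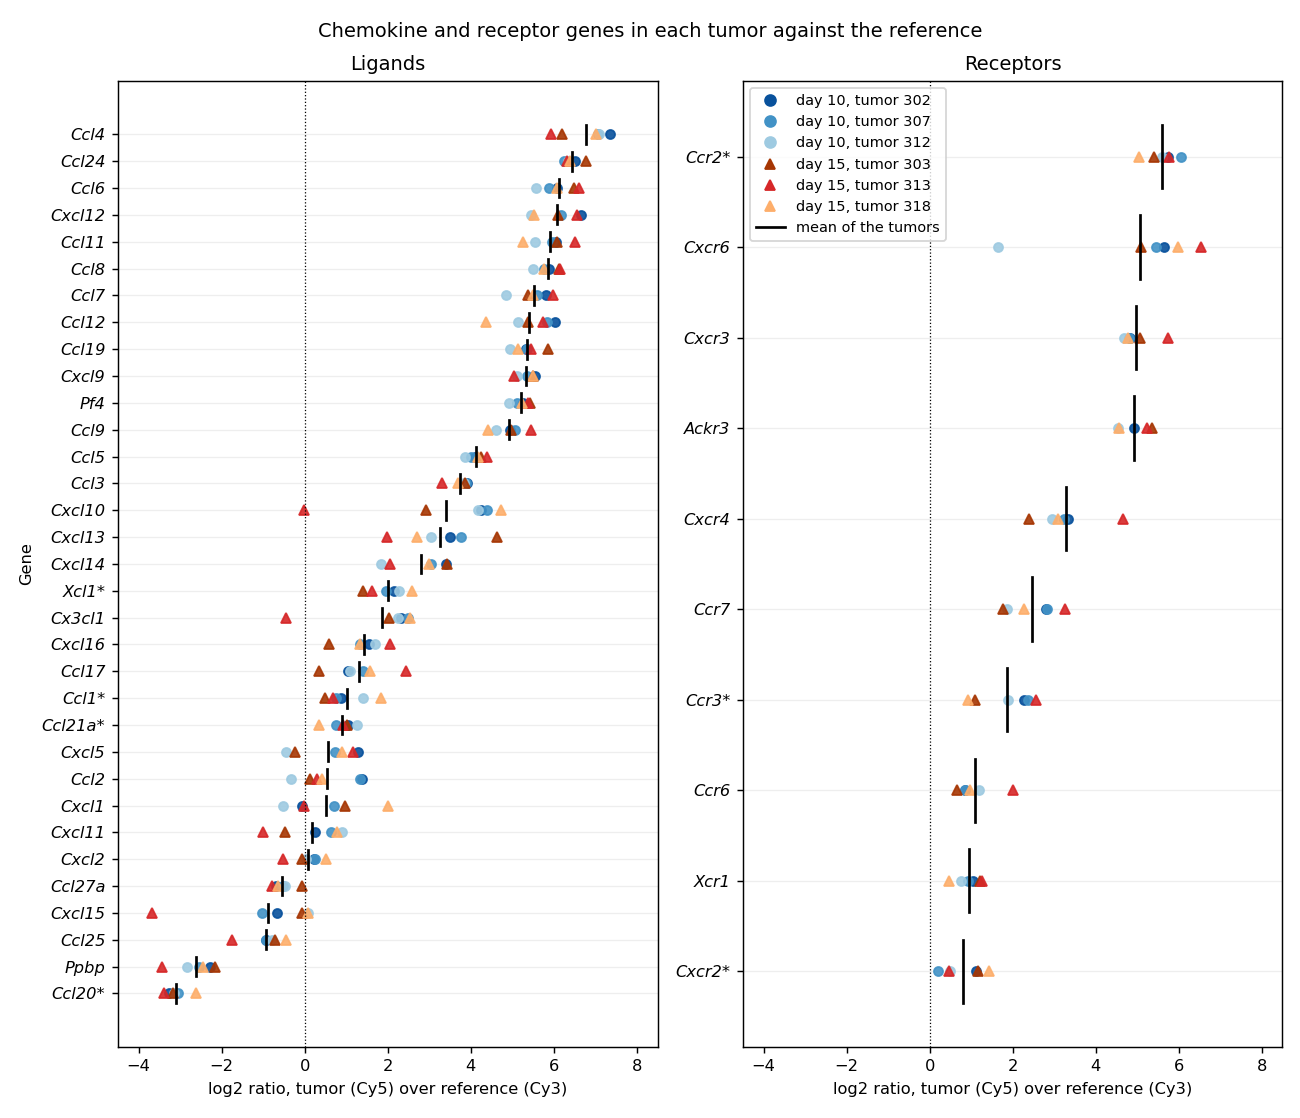
Log2 ratio of tumor (Cy5) over reference (Cy3) in each tumor for 33 ligands and 10 receptors that were tested. Circles are day 10 tumors, triangles day 15 tumors and the black bar their mean, and an asterisk marks a gene dim in 1 dye on all arrays, whose ratio is only a bound. Most ligands lie right of 0, Ccl20 and Ppbp lie left of it in every tumor, and tumor 313 stands apart for Cxcl10, Cx3cl1 and Cxcl15.

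Among the 20 CC ligands, 18 were tested, 13 were higher and 1 was lower. The eosinophil attractant Ccl24 (eotaxin-2) had a log2 ratio of 6.43 (SE 0.09, adjusted p = 1.24e-07, limma), with tumors between 6.25 and 6.77, and a second probe between 4.96 and 5.33. Ccl11 (eotaxin-1), which acts on the same receptor Ccr3, lay at 5.90 ± 0.44 (SD, n = 6). Both eotaxins were thus far above the reference in all 6 tumors.

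The monocyte attractants formed a second group. Ccl8 lay between 5.50 and 6.14 (mean 5.86, SE 0.09, adjusted p = 1.46e-07, limma). Ccl7 lay at 5.52 ± 0.40 and Ccl12, whose reference was above background on 3 arrays, at 5.41 ± 0.60 (SD, n = 6). Ccl2, the best known ligand of Ccr2, behaved differently: its ratios were 1.37, 1.33 and -0.34 on day 10 and 0.13, 0.31 and 0.42 on day 15. Its mean of 0.54 (SE 0.23) did not pass (adjusted p = 0.067, limma). Ccl2 had a strong signal in the reference itself, between 14.67 and 15.77 log2 units in Cy3. Its probe was spotted 10 times and 2 of those spots lay in the area of lost signal of tumor 312, the tumor with the lowest ratio.

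The inflammatory ligands Ccl3, Ccl4 and Ccl5 were all higher. Ccl4 (MIP-1β) had ratios of 7.36, 7.06 and 7.08 on day 10 and of 6.20, 5.94 and 7.0 on day 15, with a mean of 6.77 (SE 0.14, adjusted p = 2.32e-07, limma). Its reference signal was above background on 1 of 6 arrays, which makes the size of this ratio less secure. Ccl3 (MIP-1α) lay between 3.31 in tumor 313 and 3.90 in tumor 302, with a mean of 3.75 (SE 0.09, adjusted p = 3.35e-07, limma). Ccl5 (RANTES), made by T and NK cells among others, lay between 3.86 and 4.39 with a mean of 4.13 (SE 0.07, adjusted p = 1.51e-07, limma), and its other probe lay between 5.08 and 5.71. Of the 3, Ccl3 and Ccl5 were measured in both dyes on all 6 arrays.

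Ccl6 and Ccl9 are mouse ligands of Ccr1. Ccl6 had ratios of 6.07, 5.89 and 5.58 on day 10 and 6.48, 6.60 and 6.09 on day 15, and its mean was 6.12 (SE 0.10, adjusted p = 1.47e-07, limma). Ccl9 lay at 4.91 ± 0.36 (SD, n = 6). Ccl19, a ligand of Ccr7, lay between 4.94 and 5.86 (mean 5.34, SE 0.11, adjusted p = 2.32e-07, limma), and its second probe was also higher. The probe printed as Ccl21b, whose accession now belongs to Ccl21a, read the other Ccr7 ligand. It was above background in the tumor on 5 arrays and in the reference on 0, and was at least 1.54-fold higher in the tumors without passing the limit on the ratio. Copies of Ccl21 are nearly identical in sequence, so the probe may not tell them apart.

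The remaining CC ligands had small ratios or a dim signal. Ccl17, which calls T cells through Ccr4, lay at 1.31 ± 0.69 and passed (adjusted p = 0.00253, limma, n = 6). Ccl1 was above background in only 4 tumors, 1 of them of day 15, and on no reference array. It was at least 1.61-fold higher and only just passed the limit on the ratio (adjusted p = 0.00264, limma). Ccl22, the other Ccr4 ligand, was above background on 1 array, and Ccl28 on 0. Ccl25 and Ccl27a, ligands that serve gut and skin, had mean ratios of -0.93 ± 0.44 and -0.54 ± 0.26 (SD, n = 6) and were not called. For Ccl25 the call depended on the probe. A dimmer probe lay at -1.24 (adjusted p = 0.000398, limma), past the limit for a lower gene, and another at -0.34. Ccl27a lay in the area of lost signal of tumor 312.

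Among the 13 CXC ligands, all were tested, 7 were higher and 1 was lower. Cxcl12, the stromal ligand of Cxcr4, was at 6.07 ± 0.51, with its second probe between 4.84 and 6.03, and the reference was above background on 2 of 6 arrays for the first probe and 5 for the second. Cxcl13, which draws B cells, lay at 3.27 ± 0.92 (SD, n = 6) and varied widely, from 1.98 in tumor 313 to 4.63 in tumor 303, with a reference above background on 2 of 6 arrays. Cxcl14 had a mean of 2.79 and of 2.98 without tumor 312, where its probe lay in the area of lost signal. Cxcl16, a membrane-bound ligand of Cxcr6, lay between 0.58 in tumor 303 and 2.05 in tumor 313, with a mean of 1.42 (SE 0.18, adjusted p = 0.000408, limma). Its second probe lay higher, between 1.56 in tumor 303 and 2.70 in tumor 313, with a mean of 1.97.

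The 3 interferon-induced ligands did not move alike against the reference. Cxcl9 was high in all tumors, with ratios of 5.53, 5.35 and 5.12 on day 10 and 5.49, 5.04 and 5.49 on day 15 (mean 5.34, SE 0.10, adjusted p = 1.55e-07, limma). Cxcl10 had ratios of 4.26, 4.38 and 4.17 on day 10 and of 2.92, -0.03 and 4.72 on day 15 (mean 3.40, SE 0.54, adjusted p = 0.00115, limma). Cxcl11 was above background in 4 tumors and on 5 reference arrays and had a mean of 0.18 ± 0.76 (SD, n = 6) that was not called. The mean of Cxcl10 without tumor 313 was 4.09 ± 0.68.

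Of the ligands of Cxcr2, the neutrophil attractants Cxcl1, Cxcl2 and Cxcl5 were not called. Cxcl1 had ratios of -0.07, 0.69 and -0.52 on day 10 and 0.97, -0.01 and 2.0 on day 15, so tumors of both days fell on either side of 0. Cxcl2 and Cxcl5, whose probes lay in the area of lost signal of tumor 312, had means of 0.07 ± 0.35 and 0.56 ± 0.73 (SD, n = 6). None of these 3 passed the test (adjusted p of 0.124, 0.668 and 0.0904, limma). Ppbp, a platelet granule chemokine, was lower than the reference in every tumor, between -3.44 and -2.17 (mean -2.62, SE 0.17, adjusted p = 2.49e-05, limma). Pf4, the other major platelet chemokine, was higher, between 4.92 and 5.42 (mean 5.22, SE 0.08, adjusted p = 1.28e-07, limma). The 2 platelet chemokines thus lay on opposite sides of the reference. Of the 4 platelet markers, Treml1 was above background in all 6 tumors, Itga2b in 4, and Gp9 and Gp1ba in 1 each. The Cy5 signal of Treml1 was 9.91 in tumor 313 and 7.70 to 8.81 in the others. The Cy5 signals of Itga2b, Gp9 and Gp1ba in tumor 313 lay within the range of the others. That tumor had the highest Cy5 signal of Pf4, 16.73, but the lowest of Ppbp, 8.25, against 9.19 to 9.59 in the others. The part of platelets in the values of Pf4 and Ppbp was not tested.

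Ccl20, the chemokine ligand of Ccr6, was the other gene called lower. It was not well above background in any tumor but was bright in the reference on all 6 arrays, so the reference was at least 7.76-fold higher (adjusted p = 1.77e-06, limma). Xcl1, made by activated T and NK cells, was not above background in the reference and was at least 3.38-fold higher in the tumors (adjusted p = 5.34e-05, limma). Cx3cl1 (fractalkine), a membrane-bound ligand, had ratios of 2.33, 2.5 and 2.25 on day 10 and of 2.04, -0.45 and 2.53 on day 15. Its mean was 1.86 (SE 0.37, adjusted p = 0.00299, limma) over all tumors and 2.33 ± 0.20 (SD, n = 5) without tumor 313. A second, dimmer probe, in the area of lost signal of tumor 312, lay between -0.56 and 0.64 and was not called.

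Of the 18 receptors, 11 were tested, 9 were higher and 0 were lower. Ccr2, which marks inflammatory monocytes, was above background in all 6 tumors and in the reference on 0 arrays, and was at least 35.7-fold higher (adjusted p = 2.01e-07, limma). Its second probe gave a smaller bound, at least 2.32-fold. Ccr3, the eosinophil receptor, was at least 2.81-fold higher (adjusted p = 0.000292, limma), but its other probe was above background in neither dye.

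The T cell receptors of the family followed. Cxcr3, carried by activated T and NK cells, had ratios of 4.83, 4.80 and 4.68 on day 10 and 5.06, 5.74 and 4.78 on day 15 (mean 4.98, SE 0.13, adjusted p = 4.39e-07, limma). Cxcr6, carried by tissue-homing T cells, had ratios of 5.64, 5.45 and 1.65 on day 10 and 5.09, 6.54 and 5.99 on day 15. Its probe lay in the area of lost signal of tumor 312, so the mean of 5.06 (SE 0.54, adjusted p = 0.000175, limma) became 5.71 with that area left out. Tumor 313 was the highest of the 6 for both receptors.

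Ccr7, the homing receptor of naive T cells and mature dendritic cells, lay between 1.77 and 3.25 (mean 2.46, SE 0.22, adjusted p = 8.44e-05, limma). Cxcr4, the receptor of Cxcl12, had ratios of 3.34, 3.24 and 2.95 on day 10 and 2.39, 4.65 and 3.08 on day 15 (mean 3.27, SE 0.27, adjusted p = 6.37e-05, limma). Its reference signal was above background on 1 array, and its other probe, in the area of lost signal of tumor 312, had a mean of 1.5. Ackr3 (printed as Cxcr7), a scavenger of Cxcl12, lay between 4.55 and 5.35 in the 5 tumors measured (estimate 4.89, SE 0.15, adjusted p = 3.79e-06, limma). Both receptors of Cxcl12 and the ligand itself were thus higher than the reference.

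Ccr6, the receptor of Ccl20, lay at 1.09 ± 0.49 (SD, n = 6) and only just passed the limit on the ratio (adjusted p = 0.00127, limma); the fitted ratio without tumor 313, the average of the 2 day means, was 0.89, short of that limit. Its reference was above background on 1 array. Xcr1, the receptor of Xcl1 on cross-presenting dendritic cells, lay between 0.46 and 1.26 (mean 0.95, SE 0.12, adjusted p = 0.000433, limma), short of the limit on the ratio. Cxcr2 (printed as Il8rb), the neutrophil receptor, was at least 1.62-fold higher and also short of it (adjusted p = 0.00352, limma), with its second probe above background in neither dye. The other 7 receptors were too dim to test. Ccr1, Ccr1l1, Ccr4 and Ccr8 were above background in no array of either dye, Ccr10 in 1 array of the reference, and Ccr9 and Cx3cr1 in 2 tumors each. For these genes the level was below what the array could measure, and no fold is given.

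Ligands and receptors were then set side by side in 36 known pairs. Since 31 of the 44 tested genes were higher and pairs share genes, a count of pairs does not show matching within them. In 14 pairs, both the ligand and its receptor were called higher. These included Ccr2 with Ccl7 and Ccl12, Ccr3 with Ccl11 and Ccl24, Cxcr3 with Cxcl9 and Cxcl10, Cxcr4 with Cxcl12, Cxcr6 with Cxcl16 and Ccr7 with Ccl19. Other pairs were split. Ccl20 was lower while Ccr6 was higher, and 5 ligands of Ccr1 (Ccl3, Ccl5, Ccl6, Ccl7 and Ccl9) were higher while the probe of Ccr1 itself stayed below background. Likewise Cx3cl1 was higher with Cx3cr1 dim, and Ccl1 and Ccl8 were higher with Ccr8 not above background.

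**Figure D2:**
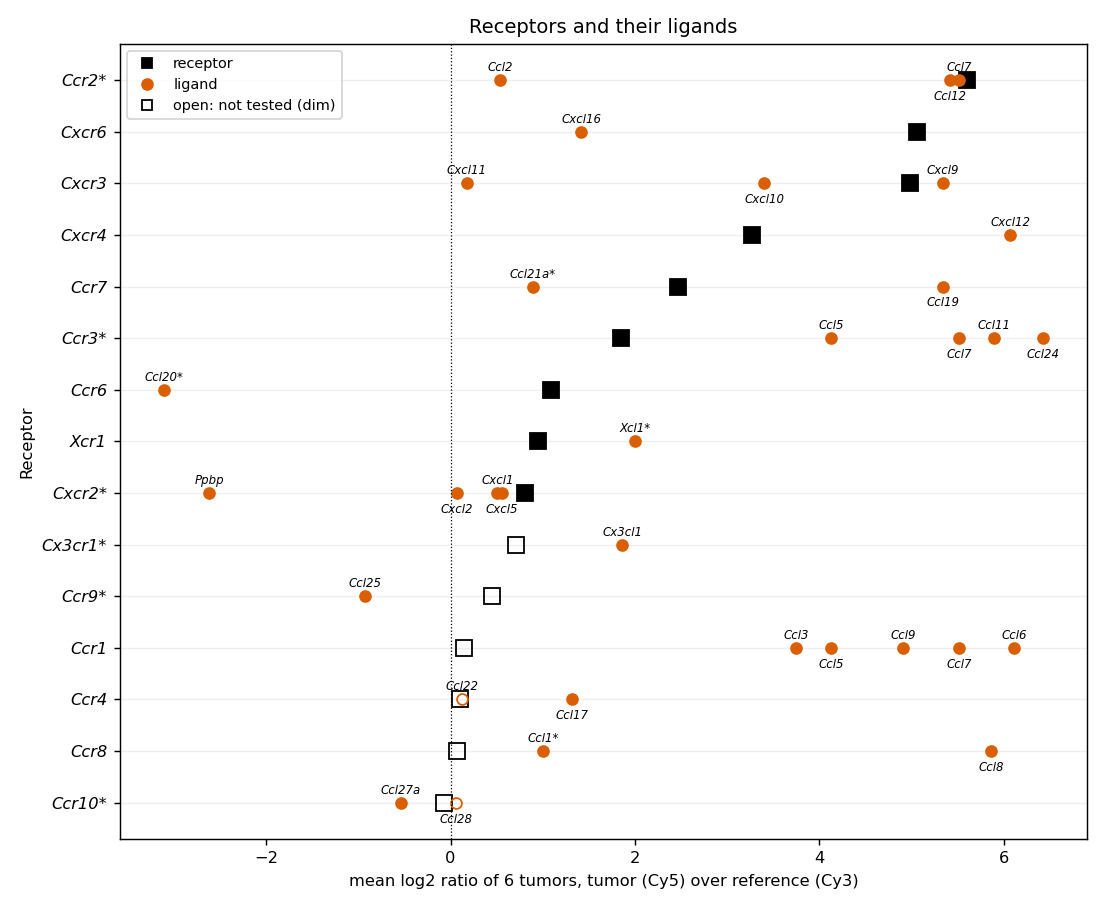
Mean log2 ratio of the 6 tumors for 15 receptors (squares) and their ligands (circles), 1 receptor per row. Open symbols are genes too dim to test and an asterisk marks a gene dim in 1 dye on all arrays, whose position is only a bound. Cxcr3 (4.98) lies near its ligand Cxcl9 (5.34), and the dim receptors Ccr1 and Ccr8 share a row with ligands such as Ccl6 (6.12) and Ccl8 (5.86).

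The ratio alone did not show how the tumor signal of every chemokine behaved, because for several of them both dyes moved together. The tumor signal of Cxcl9 in Cy5 was 15.33, 15.33 and 15.23 log2 units on day 10 and 13.57, 12.07 and 15.25 on day 15. Its reference signal in Cy3 was 10.58, 10.80 and 11.08 on the day 10 arrays and 8.72, 7.53 and 10.44 on the day 15 arrays. Both dyes were low for tumors 303 and 313, and the ratio, with an SD of 0.21 against 1.36 in Cy5 and 1.41 in Cy3, did not show it. Cxcl10 differed: its Cy5 signal was 15.46, 15.64 and 15.96 on day 10 and 14.30, 11.50 and 15.68 on day 15, while its Cy3 signal had an SD of 0.35. In the tumor dye, then, Cxcl9 and Cxcl10 were both lowest in tumor 313 and next lowest in tumor 303.

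Ccl3 followed the pattern of Cxcl9. Its Cy5 signal was 12.78, 12.69 and 13.39 on day 10 and 11.31, 10.52 and 12.20 on day 15, its Cy3 signal had an SD of 1.05, and its ratio had an SD of 0.23. The reference signal of Cx3cl1, by contrast, was steady, between 13.61 and 13.90 on all arrays (SD 0.10). Over the 22 genes above background in both dyes on all arrays, 10 had a ratio that varied less than either dye alone. Leaving out probes in the area of lost signal, these were 9 of 12 genes with a mean log2 ratio of 3 or more, 0 of 4 with a ratio from 1 to 3, and 0 of 3 below 1. Over all genes the shares were 49.7%, 25.7% and 43.9% in these 3 ranges. The 9 genes were Ccl3, Ccl5, Ccl6, Ccl7, Ccl8, Ccl9, Ccl24, Pf4 and Cxcl9. The labels name the same reference for every array, and why its signal varied was not tested.

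**Figure D3:**
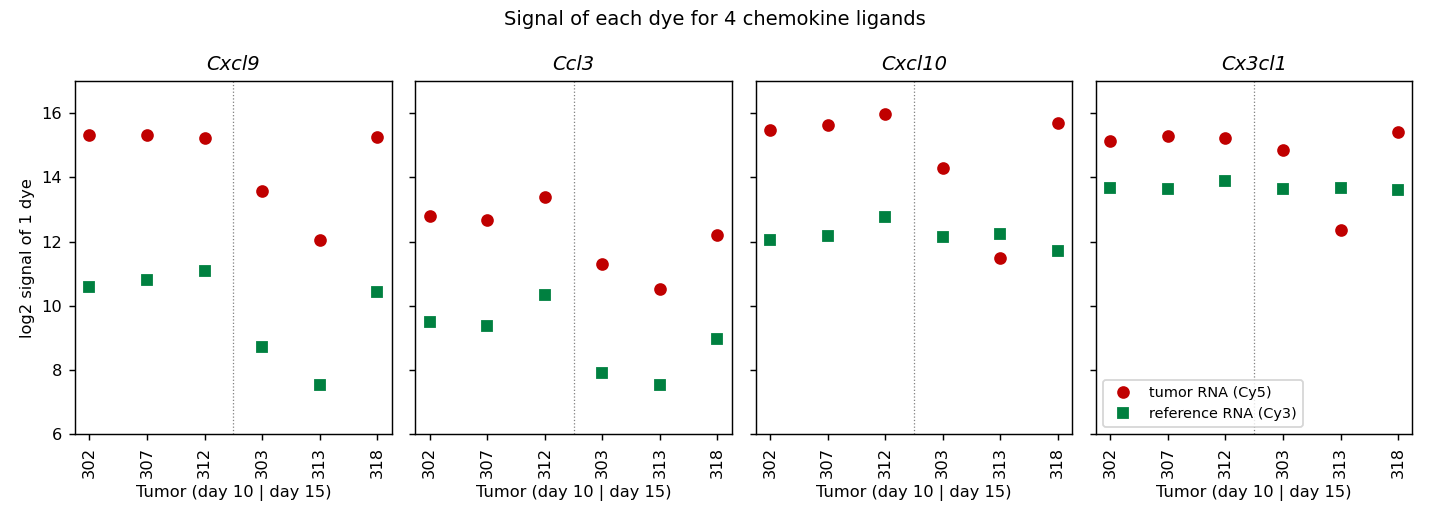
Log2 signal of the tumor dye (red circles) and the reference dye (green squares) of each array for Cxcl9, Ccl3, Cxcl10 and Cx3cl1, with day 10 tumors left of the dotted line. For Cxcl9 and Ccl3 both dyes are low in tumors 303 and 313, and for Cxcl10 and Cx3cl1 only the tumor dye is low in tumor 313. Signals are to be read within a panel, since probes differ in brightness.

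Tumor 313 stood apart for several ligands. In Cy5 it lay below every other tumor for 11 of the 40 genes above background in 5 or 6 tumors, and above every other tumor for 9. Over 14767 genes it was lowest in 28.1% and highest in 22.0%, so the shares of these genes were near those of the whole array. The 4 genes whose Cy5 signal lay farthest below the mean of the other tumors were Cxcl10 (by -3.91 log2 units), Cxcl15 (-3.10), Cxcl9 (-2.88) and Cx3cl1 (-2.84). Cxcl15 (lungkine) had ratios of -0.66, -1.03 and 0.07 on day 10 and -0.08, -3.67 and 0.08 on day 15, and neither of its probes was well above background in tumor 313. At the other end, the receptors Cxcr6, Cxcr4 and Cxcr3 lay 2.35, 1.75 and 1.26 above the mean of the other tumors in Cy5, and the ligands Ccl17, Cxcl5 and Pf4 lay 1.38, 1.25 and 1.21 above it. Of these 6, the probes of Cxcr6 and Cxcl5 lay in the area of lost signal of tumor 312. The receptor Ccr2 was near the mean (-0.16).

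Some markers moved with this tumor. Afp had a log2 ratio of -4.75 in tumor 313 and 2.22 to 3.25 in the others, and Alb -2.48 against 2.26 to 3.06. The Cy5 signal of Ambp was 6.98 in tumor 313 and 16.20 to 17.72 in the others, whereas Gpc3 had a ratio of 5.13, within the range of the others. The median ratio of each list was taken over its markers above background in all 6 tumors. For T cells, with 4 of 6 markers, it was 3.96 in tumor 313 and 2.96 to 3.63 in the others. Cd4 was above background on 0 arrays in either dye. The median of the 6 macrophage and monocyte markers was 5.53, barely above the others (4.86 to 5.52), and only Csf1r and Cd68 were highest there. The median of the 4 endothelial markers was 3.71, against 2.33 to 3.53. For dendritic cells the median rested on 2 of 4 markers, Itgax and Zbtb46, and was 2.93, against 2.04 to 2.13. Clec9a, a dendritic cell marker above background in 5 tumors, went the other way. Its ratio was 0.90 in tumor 313 and 1.06 to 2.02 in the others. The B cell median, over 2 of 4 markers, was also highest in tumor 313 (2.78, against 1.76 to 2.69). The NK and neutrophil medians, over 2 of 3 and 2 of 6 markers, lay within the range of the others. Of the inducers of chemokines, the interferon-regulated factor Irf1 had a ratio of 2.18 in tumor 313, against 3.04 to 3.60 in the others, and Il1b 3.86 against 4.77 to 6.17. Ifng was also lowest there by ratio (5.03, against 5.18 to 5.95), but not in Cy5 (11.63, against 11.54 to 13.34). Nfkb1 and Rela were highest in tumor 313, at 0.79 and 0.74, and Nfkbia, at 2.03, lay within the range of the others. The part of these markers in the chemokine values was not tested.

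The stretches before the start of the 4 genes with the lowest relative signal in tumor 313 are shown because these members carried the largest drops of that tumor. They are the 250 bases upstream of the RefSeq start (mouse build GRCm38.p6), 5′ to 3′ on the strand of the gene. Capitals mark matches, on either strand, to the interferon response element core (GAAA, any 2 bases, GAAA) or the NF-kB site (GGGA, any 2 bases, TTCC). The Cxcl10 stretch lies at chr5:92348890-92349139 (minus strand), Cxcl15 at chr5:90794284-90794533 (plus strand), Cxcl9 at chr5:92328080-92328329 (minus strand) and Cx3cl1 at chr8:94771930-94772179 (plus strand).
Cxcl10: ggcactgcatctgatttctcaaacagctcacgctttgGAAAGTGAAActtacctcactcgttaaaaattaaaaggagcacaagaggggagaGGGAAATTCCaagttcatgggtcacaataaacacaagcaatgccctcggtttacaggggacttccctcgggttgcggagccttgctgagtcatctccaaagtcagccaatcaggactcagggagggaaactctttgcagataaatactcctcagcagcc
Cxcl15: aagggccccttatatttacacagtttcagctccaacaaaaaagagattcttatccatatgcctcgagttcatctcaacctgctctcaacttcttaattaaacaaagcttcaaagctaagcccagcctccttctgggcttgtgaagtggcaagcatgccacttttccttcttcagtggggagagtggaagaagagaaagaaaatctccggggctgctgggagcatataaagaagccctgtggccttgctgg
Cxcl9: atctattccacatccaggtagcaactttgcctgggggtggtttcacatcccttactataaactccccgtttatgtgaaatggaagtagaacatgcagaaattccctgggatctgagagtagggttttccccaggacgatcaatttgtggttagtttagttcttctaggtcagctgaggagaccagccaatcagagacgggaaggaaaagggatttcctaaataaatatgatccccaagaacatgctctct
Cx3cl1: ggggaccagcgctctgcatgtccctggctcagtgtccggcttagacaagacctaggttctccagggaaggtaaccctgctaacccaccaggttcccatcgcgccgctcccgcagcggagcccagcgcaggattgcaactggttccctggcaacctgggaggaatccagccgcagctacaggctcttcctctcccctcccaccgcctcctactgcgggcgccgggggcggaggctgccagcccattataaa
The Cxcl10 stretch held both motifs, the first starting 213 bases and the second 159 bases before the start. The stretches of Cxcl15, Cxcl9 and Cx3cl1 held neither of these letters, which says nothing about sites farther off or of other spelling. Of 41 genes of the family with an entry in the promoter table, 3 held the first motif (Ccl19, Cxcl10 and Cxcl14) and 5 the second (Ccl1, Ccr3, Cxcl1, Cxcl2 and Cxcl10). Over all 32851 promoters of the table the shares were 2.98% and 1.21%. A match describes letters and not a site in use.

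**Figure D4:**
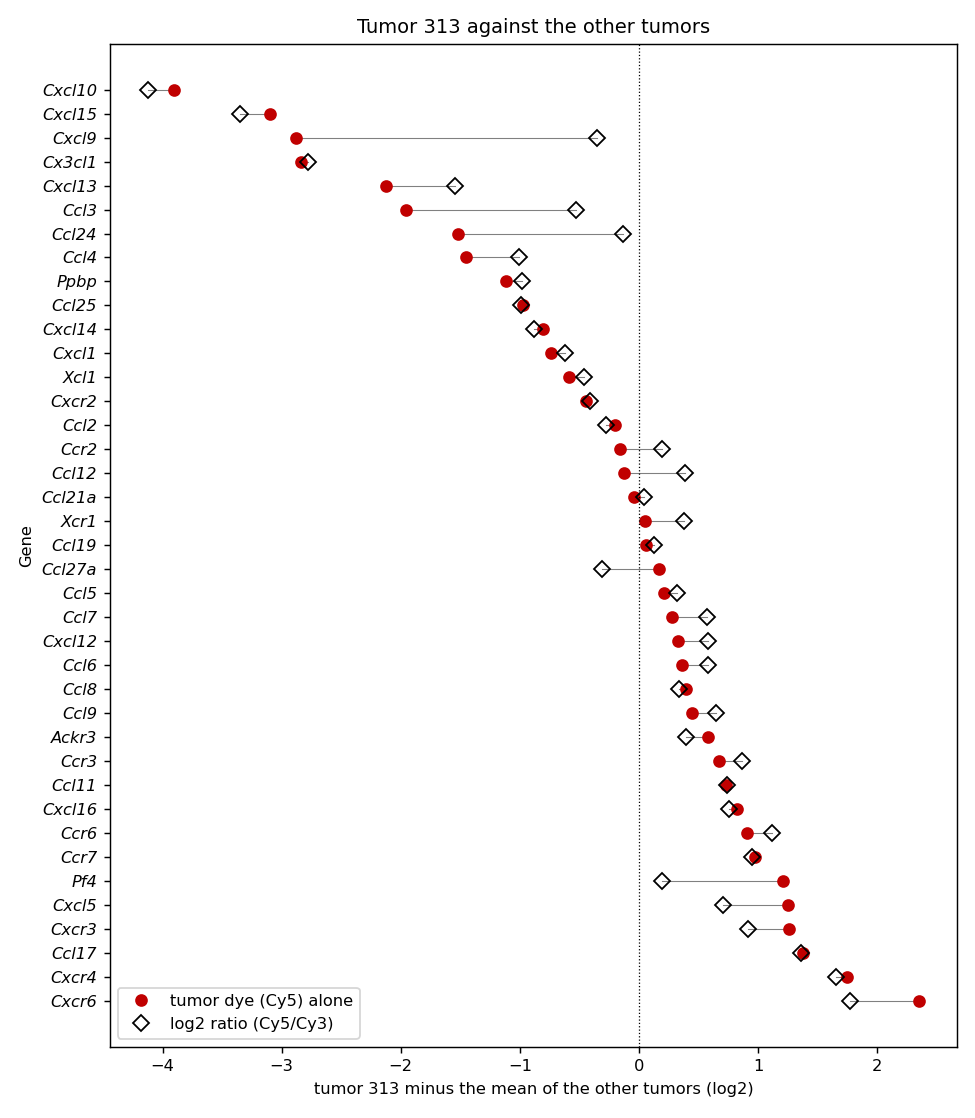
Tumor 313 minus the mean of the other 5 tumors (log2) for 39 genes, in the tumor dye alone (red circles) and as a ratio (open diamonds), joined by a line. Cxcl10, Cxcl15, Cxcl9 and Cx3cl1 are lowest in the tumor dye, and for Cxcl9, Ccl3 and Ccl24 the difference in ratio (-0.35, -0.53 and -0.13) is smaller than that in the tumor dye (-2.88, -1.96 and -1.52). Ccl27a, Cxcl5, Cxcl14 and Cxcr6 include the value of tumor 312 from the area of lost signal.

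The design compared day 15 with day 10, and no chemokine or receptor gene passed. Of 43 genes tested, 0 were higher and 0 lower at day 15 (limma, adjusted p under 0.05), against 0.0127% higher and 0.0443% lower over 15804 genes. The smallest adjusted p among the 43 was 1.0. At an unadjusted p under 0.05 there were 2 genes, beside 4.01% of all genes. Ccl6 was higher by 0.54 (SE 0.20, adjusted p = 1.0, limma), with every day 15 tumor above every day 10 tumor, but by 0.09 in the tumor dye alone. Ccl5 was higher by 0.28 (SE 0.14) with the same order, and lower by a difference of -0.32 in the tumor dye alone. Ccl4 was lower in every day 15 tumor than in any day 10 tumor, a difference of -0.79 (SE 0.29, adjusted p = 1.0, limma). The 3 tumors of day 15 all lay above those of day 10 for 2 genes (5.06% of all genes) and all below them for 1 (3.79%), shares near those of the array.

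The largest differences in size rested on single tumors. Cxcl10 differed by -1.73 (SE 1.09) between the days and by -0.45 without tumor 313. Cxcr6 differed by 1.63 (SE 1.08) and by 0.33 with the area of lost signal left out. The difference of Ccl4 was -0.08 with the processed signals of the scanner software, where that of Ccl6 was 0.43.

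In the tumor dye alone, 4 of the 43 genes had an unadjusted p under 0.05, all lower at day 15, beside 2.96% of all genes, and 0 passed the adjustment (smallest adjusted p = 0.845, limma). They were Ccl3 (-1.61, SE 0.45), Ccl12 (-1.36, SE 0.41), Ccl4 (-1.30, SE 0.40) and Ccr2 (-0.77, SE 0.27). In the reference dye, 8 of 33 genes had an unadjusted p under 0.05 between the slides, beside 1.54% of all genes. All 8 were lower on the day 15 slide, a direction that was not counted over all genes. After adjustment 0 passed (smallest adjusted p = 0.594, limma). The 8 were all ligands: Ccl3, Ccl5, Ccl7, Ccl9, Ccl11, Ccl12, Ccl24 and Cxcl9. The difference of Ccl3 was -1.59 in Cy3 (SE 0.45), beside -1.61 in Cy5. That of Ccl12 in Cy3 has no exact size, since its reference was above background on 3 arrays. The muscle gene Tnnc2 also separated the days, with ratios of 3.70 to 4.19 at day 10 and of -0.54 to -0.36 at day 15; its part in these values was not tested.

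Across the 6 tumors, the ratios of ligand and receptor were correlated in the 18 pairs with both genes above background in every tumor. The reference of Ccr2, Ccr3, Cxcr2 and Xcl1 was above background on no array, so their ratios in these pairs are only bounds. No pair passed after adjustment over the 18 (smallest adjusted p = 0.15 for Pearson's r and 0.45 for Spearman's rho, exact permutation test over pairings, 2-sided). Of the 18 values of r, 10 were above 0. Ccr2 and Ccl12 had r = 0.88 (rho = 0.77, exact permutation p = 0.025, adjusted p = 0.15), and 0.65 without the 2 tumors farthest from the median of Ccr2. Cxcr3 and Cxcl10 had r = -0.98 (rho = -0.66, exact permutation p = 0.022, adjusted p = 0.15). This rested on tumors 303 and 313, without which r was 0.35. Xcr1 and Xcl1 had r = -0.92 (rho = -0.89, exact permutation p = 0.015, adjusted p = 0.15), but 0.30 in the tumor dye alone.

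Genes that act around chemokines were examined as a list of 41 partners, of which 38 were tested. Of these, 31 were higher than the reference, 0 were lower and the median log2 ratio was 2.62, beside 25.5% higher and a median of 0.22 over all genes. All 6 tested genes of cytoskeleton and adhesion were higher, among them the leukocyte Rac activator Dock2 (2.88) and the integrin chain Itgb2 (3.83), which leukocytes use to move and adhere. Of the desensitisation genes, 4 of 7 were higher. Rgs2 had the largest ratio of the list (5.53, SE 0.46), though its probe lay in the area of lost signal, and Rgs1, also a brake on G proteins, was at least 26.6-fold higher. The inducers were higher in 6 of 8, with Ifng at 5.42 (SE 0.13) and Il1b at 5.05 (SE 0.28). Nfkb1 and Rela lay at 0.66 and 0.48 and were not called. Of the 7 genes of cleavage and presentation, 6 were higher, including Dpp4 (4.08), a protease that trims several chemokines, whose probe lay in the area of lost signal. Between the days, 0 of the 38 partners passed (limma).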

How the data were processed

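RNA of 6 tumors was hybridised with a common reference on 2-colour Agilent arrays. Per the labels and the file headers, the deposited scanner files were made with Agilent Feature Extraction 9.1.3.1 and hold the intensity of each spot in both dyes, together with its log10 ratio. The series' deposited value table holds the same log10 ratios. The genome build is not given in the sources used here. The members and lists were chosen with earlier results of these data known.

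From the deposited mean intensities, background was corrected with normexp (offset 50), dyes were normalized within arrays by loess, and spots of a probe were averaged. Outlier spots were left out. Limma 3.58.1 in R 4.3.3 tested the mean log2 ratio against 0 and day 15 against day 10, with Benjamini-Hochberg adjustment over 24222 and 23068 probes well above background on at least 3 arrays. Calls against the reference also needed a log2 ratio of at least 1. A gene is its brightest tested probe. Signals of 1 dye were background corrected in the same way and quantile normalized across arrays within that dye, without loess. Only the bounds used signals after loess and Aquantile normalization. A gene dim in 1 dye on all arrays got a bound, the bright mean over the higher of the dim signal and the lowest signal above background of each array, which is open to dye bias. Spelled out in full were the 10 genes of smallest p above the reference with 1 sign in all tumors, those lower, each tested receptor, and per direction up to 6 genes without overlap between days; others were added after their values were seen, and the values of some genes are not reported here, although counts include them. Of 53 genes, 41 were matched by symbol to RefSeq promoters. The fits were tested on simulated data. The number of arrays limits the precision. Alternatives were no background correction, processed signals, median centring, the value table, other filters, the mean of all probes, leaving out the area of lost signal or each tumor, and Cy5 alone.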

Additional observations from a re-analysis of the deposited data

Results flagged for a closer look

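Of 43 genes examined, 6 held a tumor whose log2 ratio lay far from the other 5. By chance alone about 1 group in 20 would be flagged, and the share flagged over all genes was not computed. Tumor 313 lay at an end for many genes of the array: in Cy5 it was lowest in 28.1% and highest in 22.0% of 14767 genes. The count is therefore not a result about chemokine genes as a set. Tumor 313 was far below the others for Cxcl15 (-3.67, against -1.03 to 0.08, its tumor dye not well above background there), Ccl25 (-1.76, against -0.94 to -0.46), Cx3cl1 (-0.45, against 2.04 to 2.53) and Ccl3 (3.31, against 3.70 to 3.90). It was far above them for Cxcr3 (5.74, against 4.68 to 5.06). Tumor 312 was far below the others for Cxcr6 (1.65, against 5.09 to 6.54), whose probe lay in the area of lost signal on its array.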

How the results depend on the processing

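The count of 31 genes higher than the reference ranged from 29 to 34 over the alternatives run, and from 30 to 31 when 1 tumor was left out. The count of lower genes was 2 and became 4 with the processed signals, 4 with the value table, 5 with median centring and 4 with no minimum ratio, and lay between 2 and 3 when 1 tumor was left out. Over all genes, 72.3% of calls were higher in the main setting, 57.9% with processed signals and 41.4% with median centring, which moved the median ratio of all probes from 0.098 to -0.41. Between the days, 0 genes of the family and 0 partner genes passed in all alternatives run. No correlation passed in the tumor dye alone either (smallest adjusted p = 0.369, exact permutation test). The sign turned with median centring for Ccl2 (-0.41), Cxcl1 (-0.15) and Cxcl5 (-0.043), with the processed signals and the value table for Cxcl11 (-0.14 in each) and Cxcl2 (-0.12 in each), and without tumor 318 for Cxcl11 (-0.077) and Cxcl2 (-0.070). Leaving out 1 tumor at a time gave a range of -0.077 to 0.37 for Cxcl11 and of -0.070 to 0.19 for Cxcl2. None of these was called in the main setting. The difference of Ccl5 between the days turned to -0.088 with median centring and -0.32 in Cy5 alone. The correlation of Cxcr3 with Cxcl10 turned to 0.35 without tumors 303 and 313, and that of Xcr1 with Xcl1 to 0.30 in Cy5 alone. Calls near the limit on the ratio moved with the setting, such as Ccl1 (0.81 without background correction) and Ccr6 (0.89 without tumor 313). Of 610 comparisons of a gene's ratio with an alternative, 576 kept the direction and the call. No paired analysis was possible because the tumors of the 2 days carry different numbers. Genes not well above background in 1 dye have only a bound.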

Other observations

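Some chemokine genes carry older names on the array and were not among the 53. Cxcl3 (printed as Gm1960), a neutrophil attractant, had log2 ratios of -1.42, -1.76 and -1.22 on day 10 and -1.22, -4.78 and -0.69 on day 15. Tumor 313 was again lowest. The mean of Cxcl3, -1.85, passed the rule for a lower gene (adjusted p = 0.0133, limma). Its probe lay in the area of lost signal of tumor 312. Cxcr5 (printed as Blr1), the receptor of Cxcl13, was above background in all 6 tumors and on 0 reference arrays, and was at least 2.04-fold higher than the reference. Cxcr1 (printed as Il8ra) was above background on 0 arrays of either dye. The atypical receptor Ackr1 (printed as Darc), which endothelium uses to carry chemokines, lay at 2.94 ± 0.83 (SD, n = 6). It was highest in tumor 303, at 4.52, with a reference above background on 1 array. Its second probe, with a reference above background on no array, was at least 2.57-fold higher and also highest in tumor 303. That tumor also held the highest ratio of Cxcl13, 4.63.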
